A study of Mus musculus with 9 samples.

Results

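The 10 genes described here encode transcription factors that drive or mark the mesenchymal state, namely Twist1, Prrx1, Snai1, Snai2, Zeb1, Zeb2, Runx1, Runx2, Fosl1 and Cebpb. They were taken by name from a count table of 49315 Ensembl gene IDs, and all 10 were found. Their levels were measured by RNA-seq in SB28 glioblastoma cells that had or had not taken up mitochondria from astrocytes, and in those astrocytes. SB28 is a mouse glioblastoma line on the C57BL6 background, used here as GFP-expressing cells and as the only tumor line. The astrocytes were primary neonatal cells of C57BL6 (mito::mKate2) mice, in which a transgene driven by the ubiquitous CAG promoter places the red fluorescent protein mKate2 in mitochondria. SB28 cells and astrocytes shared a co-culture for 2 days in DMEM F12 medium containing FBS, N2, EGF and FGF, with amounts of FBS and N2 that differ between the labels and the study's methods, without any other treatment, and all 3 populations came out of that co-culture. Cell sorting gave SB28 cells without astrocyte mitochondria (mKate2- SB28), SB28 cells carrying them (mKate2+ SB28) and astrocytes, with 3 libraries of each from separate co-cultures, so P values measure the spread between co-cultures of 1 tumor line. SB28 cells grown alone were not analysed here, so both tumor populations had been in culture with astrocytes. Total counts per library ranged from 24454561 to 39287841.

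A mesenchymal state means that a cell loses adhesive, epithelial features and gains motility and matrix production. SNAI and ZEB proteins are zinc finger repressors that bind E-box sequences and silence epithelial genes such as Cdh1, whereas TWIST1, a basic helix-loop-helix protein, and PRRX1, a homeodomain protein, are known from the development of mesoderm and neural crest. RUNX1 and RUNX2 bind DNA together with CBFB and govern blood and bone formation, FOSL1 is a subunit of AP-1, and CEBPB is a leucine zipper protein of inflammatory signaling. In glioblastoma, FOSL1, RUNX1 and CEBPB have been named among the regulators of the mesenchymal tumor state, and glial cells in culture also express several of the other factors.

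Promoter sequence is shown for 3 members whose levels differed between SB28 cells and astrocytes, 2 of them higher in SB28 cells (Snai1 and Runx1) and 1 lower (Twist1). RefSeq sequence upstream of the start site was available for 7 of the 10 members. The sequences below are from GRCm38.p6, 5′ to 3′ on the strand of the gene, at chr2:167537945-167538194 (plus strand) for Snai1, chr16:92826150-92826324 (minus strand) for the distal start of Runx1 and chr12:33957421-33957670 (plus strand) for Twist1. Capitals mark CACCTG, the E-box bound by SNAI and ZEB proteins, or its reverse complement CAGGTG. For Runx1 the first 175 of the 250 bases searched are shown, up to the annotated end of the gene, so the sequence stops short of the RefSeq start and holds 2 of its 3 E-boxes (CANNTG).
Snai1: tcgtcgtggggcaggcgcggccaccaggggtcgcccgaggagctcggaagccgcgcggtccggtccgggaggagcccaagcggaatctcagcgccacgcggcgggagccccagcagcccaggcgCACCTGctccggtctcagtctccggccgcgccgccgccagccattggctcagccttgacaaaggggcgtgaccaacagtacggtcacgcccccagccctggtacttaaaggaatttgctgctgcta
Runx1: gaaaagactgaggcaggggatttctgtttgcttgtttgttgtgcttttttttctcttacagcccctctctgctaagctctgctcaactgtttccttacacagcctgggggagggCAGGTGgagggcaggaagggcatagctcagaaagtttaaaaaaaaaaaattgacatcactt
Twist1: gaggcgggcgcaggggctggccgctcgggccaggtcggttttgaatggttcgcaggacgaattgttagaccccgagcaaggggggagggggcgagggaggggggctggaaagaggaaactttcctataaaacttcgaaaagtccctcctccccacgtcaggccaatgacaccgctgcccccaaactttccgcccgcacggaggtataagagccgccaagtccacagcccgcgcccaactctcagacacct
Both strands of the 250 bases before each start were searched for CACCTG, for any E-box (CANNTG, which contains CACCTG), for the AP-1 motif TGANTCA, the RUNX motif TGTGGT and the C/EBP motif TTGCNNAA. Snai1 held CACCTG with its first base at -126 from the start, and Runx1 held CAGGTG at -136 from its distal start, where it had 3 E-boxes in all, and no E-box before its proximal start. The same hexamer was present in 17.2% of the 32851 promoters searched, and any E-box in 66.2%. Twist1, Prrx1 and Cebpb held a match to none of the motifs. Runx2 held the RUNX motif at -80, which 14.0% of promoters had, and the C/EBP motif at -48, which 9.56% had, with an E-box at -78 that overlaps the RUNX match. Zeb2 held the C/EBP motif at -221 from the most upstream of its 4 starts and 2 matches to the AP-1 motif, present in 6.75% of promoters, before the most downstream one. These matches describe letters in a window, and the RNA counts do not show which promoter was used.

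Before the factors were compared, the libraries were checked against their labels. The astrocyte libraries contained Apoe at 264, 260 and 270 CPM (read counts scaled to the library total), against 1.96 to 3.22 CPM in the 6 SB28 libraries. Slc1a3, the glial glutamate transporter, ranged from 173 to 236 CPM in astrocytes and Aldh1l1 from 111 to 172 CPM. The 10 astrocyte markers summed to 1000, 989 and 1566 CPM in the astrocyte libraries and to 331 to 409 CPM in SB28 cells, where Gja1 made up most of the sum. Gja1 itself was higher in SB28 cells, with means of 265 (mKate2-) and 276 CPM (mKate2+) against 198 CPM in astrocytes. Its log2 fold changes were 0.43 and 0.55 (edgeR adjusted P = 0.0156 and 0.00807). The other markers of the list had lower means in SB28 cells. Some markers of mature astrocytes were low, with Gfap at 8.83, 3.42 and 19.4 CPM and S100b at no more than 2.16 CPM. Olig2, a factor of oligodendrocyte and glial progenitor cells, stood at 268, 159 and 155 CPM in astrocytes, and Cnp, which encodes a myelin enzyme, at 136, 97.5 and 104 CPM there against 20.6 to 27.1 CPM in SB28 cells. Both were called lower in SB28 cells than in astrocytes. Mbp, Mog, Mag and Sox10, which also mark oligodendrocytes, did not exceed 1.22 CPM in astrocytes, and the part of such cells in the levels of the factors was not tested. Among the microglia markers, Aif1, Csf1r and Ptprc stayed below 1 CPM in all 9 libraries, and Tmem119 was the only marker above 3 CPM. The fibroblast markers Dcn and Lum did not exceed 2.45 CPM, and Pdgfrb ranged from 42.2 to 60.9 CPM across all libraries. Of 8 fibroblast and mural markers, 4 passed the filter, and Col3a1 and Tbx18 were called higher in SB28 cells than in astrocytes. The list summed to 171 to 251 CPM in SB28 cells and 127, 145 and 228 CPM in astrocytes, and its part in the levels of the factors was not tested.

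Some libraries stood apart from their group. In mKate2+ SB28 replicate 2, 47.3% of the 11854 genes tested had their lowest value of the 6 SB28 libraries, and the deviation moved with exonic length. On the log2 scale, the median deviation from the other 5 SB28 libraries was 0.54 for genes with up to 1000 bases of exon and -0.41 for those with over 12000 bases. Cebpb and Twist1, with 1504 and 1628 bases of exon, were highest in this library, with deviations of 0.84 and 0.49. Prrx1, Runx1, Zeb1, Runx2 and Zeb2, with 8837 to 19942 bases, were lowest, with deviations of -0.19 to -0.47. In astrocyte replicate 3, 905 genes were more than 2-fold higher than the mean of the other astrocyte libraries, against 196 and 272 in replicates 1 and 2, and in replicate 1, 939 genes were more than 2-fold lower, against 362 and 238. Genes higher in replicate 3 included Aqp4 (59.7 against 5.64 and 6.82 CPM), Cdh11 (127 against 13.7 and 31.0 CPM) and the endothelial genes Flt1 (192 against 5.64 and 12.4 CPM) and Cdh5 (5.64 against 0.654 and 0.367 CPM). Flt1 was also present in the SB28 libraries, at 47.5 to 60.2 CPM. The other endothelial markers, Pecam1, Cldn5, Tek and Kdr, did not exceed 1.02 CPM in any library, and Cldn5 had 0 reads in astrocytes. The results were refitted without each library and with the length trend removed, and calls of the factors that changed are given with each factor.

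**Figure D1:**
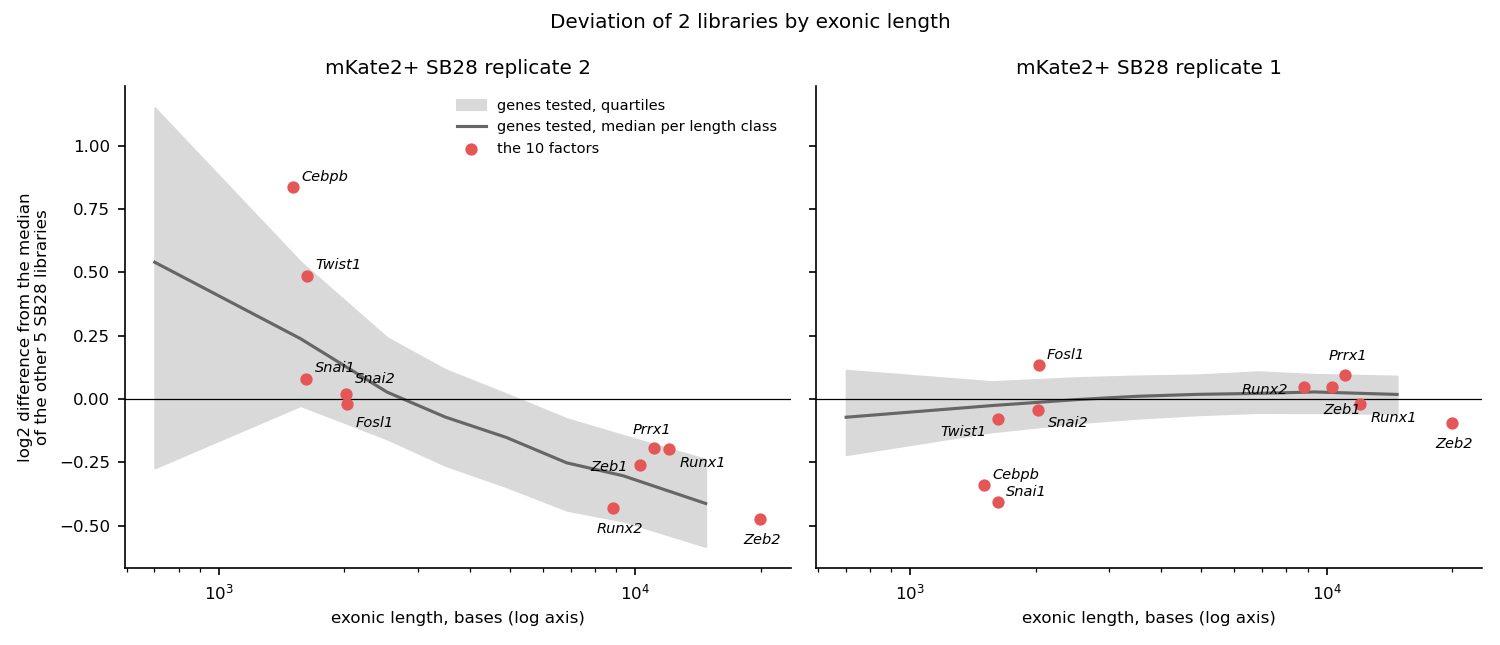
Log2 difference of 2 mKate2+ SB28 libraries from the median of the other 5 SB28 libraries (vertical axis) against exonic length in bases (horizontal log axis). The line and band show the median and quartiles of all genes tested per length class and the points show the 10 factors. In replicate 2 the line falls from 0.54 to -0.41 and Cebpb lies highest at 0.84, whereas in replicate 1 the line stays near 0.

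All 10 factors had reads in all 9 libraries, and all exceeded 1 CPM throughout apart from Snai2 in astrocyte replicate 1. Comparison of mKate2+ with mKate2- SB28 cells asked whether the factors differed with mitochondria uptake. No factor met the criteria for a difference, which required more than a 1.5-fold difference, P under 0.05 before adjustment and over 50 normalized counts on average. Of the 11854 genes tested, 0.363% met them (0.194% higher and 0.169% lower in mKate2+ cells). The smallest unadjusted P value among the 10 was 0.189 for Zeb2. Between SB28 cells and astrocytes, 5 of 10 factors met an adjusted P value below 0.05 with an absolute log2 fold change above 1 in each comparison. Snai1, Runx1 and Fosl1 were higher in SB28 cells, and Twist1 and Zeb1 were lower. Of all genes tested, 33.9% met these criteria for mKate2- SB28 cells (11.5% higher and 22.4% lower) and 35.0% for mKate2+ SB28 cells (12.2% higher and 22.8% lower). By the adjusted P value alone, 4 factors were higher and 3 lower in each comparison, where 63.1% and 60.1% of all genes passed. The median log2 fold change of the 10 factors was 0.52 for mKate2- and 0.55 for mKate2+ SB28 cells, against -0.038 and -0.018 for all genes. Both comparisons used the same 3 astrocyte libraries and are not independent.

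**Figure D2:**
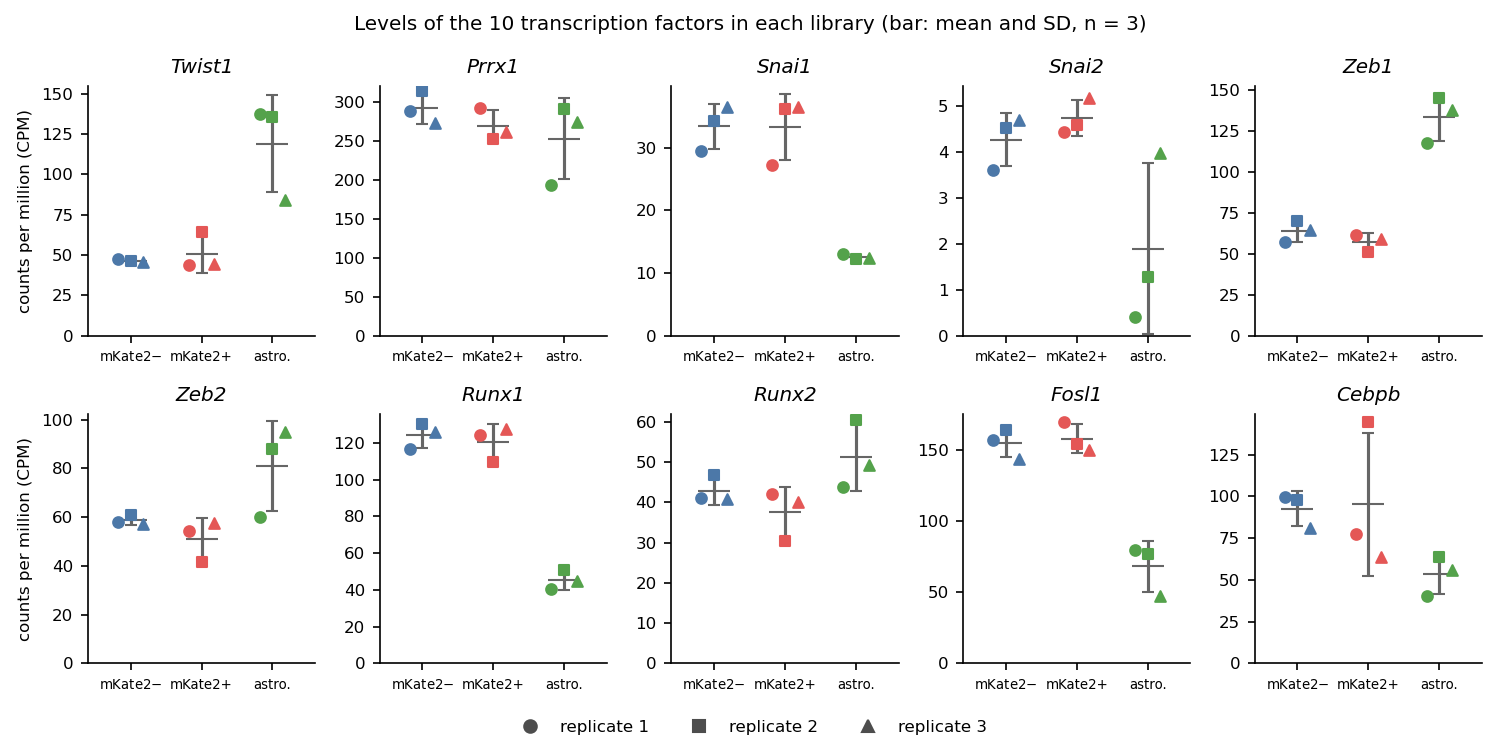
Counts scaled to the library total (CPM) of each factor in the 9 libraries, with circles, squares and triangles for replicates 1, 2 and 3 and bars for the mean and SD of 3 libraries. Snai1, Runx1 and Fosl1 sit lower and Zeb1 and Twist1 higher in all 3 astrocyte libraries than in any SB28 library.

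Twist1 (chr12:33957671-33959829, plus strand, GRCm38) was measured at 47.8, 46.0 and 45.7 CPM in mKate2- SB28 cells, at 43.5, 64.1 and 44.2 CPM in mKate2+ SB28 cells and at 137, 136 and 84.3 CPM in astrocytes. All astrocyte libraries lay above all SB28 libraries, and mKate2+ replicate 2 was the highest SB28 library. The log2 fold change against astrocytes was -1.34 ± 0.19 (SE, n = 3 against 3, edgeR adjusted P = 0.000637) for mKate2- and -1.15 ± 0.26 (adjusted P = 0.00597) for mKate2+ SB28 cells. In mKate2+ against mKate2- cells it was 0.18 ± 0.18 (adjusted P = 0.923), and -0.081 ± 0.079 without mKate2+ replicate 2. Its paralog Twist2 had the opposite distribution, with means of 31.2 CPM in mKate2- cells, 28.9 CPM in mKate2+ cells and 4.55 CPM in astrocytes, and was called higher in SB28 cells at a log2 fold change of 2.79 ± 0.15 (adjusted P = 8.73e-06) and 2.74 ± 0.20 (adjusted P = 3.76e-05). Per kilobase of exon, the level of Twist1 was 2.91 ± 0.073 (SD, n = 3) times that of Twist2 in mKate2- SB28 cells, 3.60 ± 1.48 times in mKate2+ SB28 cells and 50.7 ± 9.80 times in astrocytes.

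Prrx1 (chr1:163245119-163313710, minus strand) had the highest CPM of the 10 factors in all 9 libraries. It reached 288, 314 and 273 CPM in mKate2- SB28 cells, 292, 252 and 262 CPM in mKate2+ SB28 cells and 194, 290 and 274 CPM in astrocytes. The 3 groups overlapped, and astrocyte replicate 1 was the lowest library. Neither comparison with astrocytes passed the test, with log2 fold changes of 0.23 ± 0.15 (adjusted P = 0.226) and 0.16 ± 0.16 (adjusted P = 0.402). With the length trend removed they were 0.35 ± 0.12 (adjusted P = 0.0302) and 0.39 ± 0.13 (adjusted P = 0.0327), which passed the P value but not the fold threshold, and without astrocyte replicate 1 they were 0.071 and 0.0025. Prrx2, a paralog with an overlapping role in skeletal development, had adjusted P values of 0.0118 and 0.00774 and log2 fold changes below 1, at 0.60 ± 0.16 for mKate2- and 0.77 ± 0.18 for mKate2+ SB28 cells.

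Snai1 (chr2:167538195-167542814, plus strand), the gene whose promoter holds the CACCTG shown above, stood at 29.5, 34.3 and 36.5 CPM in mKate2- SB28 cells and at 27.3, 36.2 and 36.5 CPM in mKate2+ SB28 cells. The astrocyte libraries gave 13.0, 12.3 and 12.4 CPM. No SB28 library came near the astrocyte values, and the SB28 groups overlapped. The mean level was 2.66 times that in astrocytes in each SB28 population. The log2 fold change was 1.43 ± 0.14 (adjusted P = 8.77e-05) for mKate2- and 1.49 ± 0.17 (adjusted P = 0.000283) for mKate2+ SB28 cells, and it was called under all alternative settings tried. Between mKate2+ and mKate2- SB28 cells it was 0.053 ± 0.15 (adjusted P = 0.963).

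Snai2 (chr16:14705852-14709385, plus strand), the paralog of Snai1 known from neural crest migration, was the least abundant factor. Its values were 3.60, 4.51 and 4.69 CPM in mKate2- SB28 cells, 4.44, 4.58 and 5.18 CPM in mKate2+ SB28 cells and 0.409, 1.28 and 3.98 CPM in astrocytes, where replicate 1 rested on 10 reads. The astrocyte libraries were far apart, and replicate 3 overlapped the mKate2- SB28 libraries. The log2 fold change was 1.19 ± 0.66 (adjusted P = 0.154) for mKate2- and 1.39 ± 0.67 (adjusted P = 0.109) for mKate2+ SB28 cells. Without astrocyte replicate 3 it was 2.30 ± 0.46 (adjusted P = 0.00282) for mKate2- SB28 cells and was also called for mKate2+ SB28 cells (adjusted P = 0.00370), whereas without astrocyte replicate 1 the log2 fold changes were 0.71 ± 0.48 (adjusted P = 0.224) and 0.92 ± 0.48 (adjusted P = 0.145), so the values for Snai2 depended on these libraries. Snai2 was also called with the replicate number as a block (adjusted P = 0.0314 and 0.0289). Per kilobase, Snai1 exceeded Snai2 by 9.79 ± 0.37 times in mKate2- SB28 cells and 8.77 ± 1.09 times in mKate2+ SB28 cells, whereas the ratios in astrocyte replicates 1 to 3 were 39.6, 11.9 and 3.86. Snai3 did not exceed 0.228 CPM in any library.

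Zeb1 (chr18:5591860-5775467, plus strand) was measured at 57.1, 69.9 and 64.2 CPM in mKate2- SB28 cells, at 61.2, 51.1 and 59.2 CPM in mKate2+ SB28 cells and at 117, 145 and 137 CPM in astrocytes. The astrocyte mean was 2.09 times that of mKate2- and 2.33 times that of mKate2+ SB28 cells, without overlap. The log2 fold change was -1.05 ± 0.12 (adjusted P = 0.000197) and -1.15 ± 0.12 (adjusted P = 0.000185). The first of these values lay just past the threshold of 1, and without mKate2- replicate 1 it was -0.97 ± 0.14 (adjusted P = 0.00179), which no longer counted as called. The call was also lost for mKate2- SB28 cells without a filter on low counts (-0.99), and for both populations with the length trend removed (-0.95 and -0.96).

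Zeb2 (chr2:44983632-45117395, minus strand), which has the most exonic sequence of the 10, gave 58.0, 60.9 and 57.2 CPM in mKate2- SB28 cells, 54.2, 41.7 and 57.8 CPM in mKate2+ SB28 cells and 60.2, 88.2 and 95.0 CPM in astrocytes. Astrocyte replicate 1 was close to the SB28 values, and the other astrocyte libraries were higher. Log2 fold changes of -0.45 ± 0.16 (adjusted P = 0.0379) and -0.59 ± 0.19 (adjusted P = 0.0276) passed the P value but not the fold threshold. Only 1 of 6 fits with a library left out kept an adjusted P value below 0.05 for mKate2- SB28 cells, and 2 of 6 did for mKate2+ SB28 cells. With the length trend removed, both values moved to -0.21 (adjusted P = 0.0966 and 0.132). Per kilobase, Zeb1 exceeded Zeb2 by 2.11 ± 0.17 times in mKate2- SB28 cells, 2.19 ± 0.20 times in mKate2+ SB28 cells and 3.26 ± 0.49 times in astrocytes. The mean CPM in mKate2- SB28 cells was 63.7 for Zeb1 and 58.7 for Zeb2. The ratio there thus rested largely on their annotated exonic lengths of 10266 and 19942 bases.

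Runx1 (chr16:92601466-92826149, minus strand), a factor of blood cell formation, stood at 117, 130 and 126 CPM in mKate2- SB28 cells and at 124, 110 and 128 CPM in mKate2+ SB28 cells. Astrocytes had 40.4, 51.0 and 44.7 CPM. The SB28 means were 2.74 and 2.66 times the astrocyte mean for mKate2- and mKate2+ cells, and each SB28 library lay above each astrocyte library. Log2 fold changes were 1.47 ± 0.11 (adjusted P = 3.27e-05) and 1.48 ± 0.12 (adjusted P = 6.46e-05), the largest of the 10 factors in the comparison with mKate2- cells. Between mKate2+ and mKate2- SB28 cells the log2 fold change was 0.0031 ± 0.076 (adjusted P = 0.996). Cbfb, which encodes the shared partner of RUNX proteins, was also called higher in SB28 cells, with means of 255, 254 and 108 CPM in mKate2-, mKate2+ and astrocyte libraries and log2 fold changes of 1.26 ± 0.10 (adjusted P = 3.85e-05) and 1.31 ± 0.11 (adjusted P = 7.74e-05).

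Runx2 (chr17:44495987-44814797, minus strand), the regulator of bone formation, was measured at 41.0, 46.8 and 40.8 CPM in mKate2- SB28 cells, at 42.1, 30.4 and 40.1 CPM in mKate2+ SB28 cells and at 44.0, 60.5 and 49.4 CPM in astrocytes. All astrocyte libraries lay above all mKate2+ libraries, whereas astrocytes and mKate2- SB28 cells overlapped. The log2 fold changes of -0.24 ± 0.14 (adjusted P = 0.162) and -0.38 ± 0.16 (adjusted P = 0.0800) did not pass. The second passed the P value, but not the fold threshold, with upper-quartile normalization (adjusted P = 0.0355), a minimum of 10 counts (0.0445), the fit to all 9 libraries (0.0375) and without astrocyte replicate 1 (0.0454). Per kilobase, Runx1 was 2.14 ± 0.12 times Runx2 in mKate2- SB28 cells, 2.39 ± 0.25 times in mKate2+ SB28 cells and 0.653 ± 0.030 times in astrocytes, and the 6 SB28 ratios (2.05 to 2.65) did not overlap with the 3 astrocyte ratios (0.619 to 0.675). Runx3 did not exceed 1.74 CPM. Of 10 genes linked to RUNX2 in bone, 7 did not pass the filter, among them Sp7 and Ibsp. Phex, with means of 31.3 CPM in mKate2- cells, 27.7 CPM in mKate2+ cells and 5.81 CPM in astrocytes, was called higher in SB28 cells, whereas Spp1 ranged from 1624 to 2498 CPM over all libraries and was not called.

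Fosl1 (chr19:5447547-5455946, plus strand) reached 157, 164 and 144 CPM in mKate2- SB28 cells, 169, 154 and 150 CPM in mKate2+ SB28 cells and 79.7, 76.9 and 47.7 CPM in astrocytes. The lowest SB28 library lay well above the highest astrocyte library, and astrocyte replicate 3 was the lowest of all. Log2 fold changes were 1.20 ± 0.20 (adjusted P = 0.00139) and 1.28 ± 0.21 (adjusted P = 0.00132). Without astrocyte replicate 3 they were 0.99 ± 0.11 (adjusted P = 0.000120) and 1.06, so the first fell just under the fold threshold. Fosl1 shares 1163 bases, 57.2% of its exons, with Ccdc85b on the opposite strand, and the sources used here do not say whether counting used the strand, so the reads of the 2 genes may not be fully separated. Ccdc85b had means of 62.5 and 68.4 CPM in mKate2- and mKate2+ SB28 cells and 86.1 CPM in astrocytes. Fosl2, another AP-1 subunit, had means of 146, 142 and 156 CPM in the same order of groups, so that per kilobase Fosl1 was 5.05 ± 0.20 times Fosl2 in mKate2- SB28 cells, 5.32 ± 0.47 times in mKate2+ SB28 cells and 2.18 ± 0.79 times in astrocytes. Fos, an immediate-early gene, ranged from 34.1 to 134 CPM in astrocytes and from 18.1 to 51.7 CPM in SB28 cells. It was called lower in mKate2+ SB28 cells than in astrocytes (-1.65 ± 0.48, adjusted P = 0.0199) and missed the adjusted P value for mKate2- SB28 cells (-1.36 ± 0.53, adjusted P = 0.0535), and the first call was lost without mKate2+ replicate 1 (-1.51) or 3 (-1.46). For mKate2- SB28 cells Fos was called lower with upper-quartile normalization, without a filter, with a minimum of 10 counts, in the fit to all 9 libraries, with the replicate block and without astrocyte replicate 1 or mKate2- replicate 2, so its call depended on the setting.

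Cebpb (chr2:167688915-167690418, plus strand) gave 99.4, 98.0 and 80.8 CPM in mKate2- SB28 cells, 77.4, 144 and 63.8 CPM in mKate2+ SB28 cells and 40.2, 64.0 and 56.0 CPM in astrocytes. It was the most variable factor among mKate2+ libraries, where replicate 2 was well above replicates 1 and 3. Against astrocytes the log2 fold change was 0.82 ± 0.17 (adjusted P = 0.00387) for mKate2- SB28 cells, below the fold threshold. For mKate2+ SB28 cells it was 0.93 ± 0.34 (adjusted P = 0.0438), became called at 1.08 without mKate2+ replicate 1 and at 1.16 without replicate 3, and was 0.45 ± 0.20 (adjusted P = 0.101) without replicate 2. Of the 6 fits with a library left out, 2 kept an adjusted P value below 0.05, with a range of 0.0221 to 0.129, and it was also above 0.05 with upper-quartile normalization (0.0639), a minimum of 10 counts (0.0603) and the length trend removed (0.0674). Between mKate2+ and mKate2- SB28 cells the log2 fold change was 0.11 ± 0.30 (adjusted P = 0.963), and -0.39 ± 0.12 without replicate 2 (unadjusted P = 0.00843, adjusted P = 1.00), which passed the P value but not the 1.5-fold criterion. Among 1504 bases of exon, 312 overlap with Tmem189 on the opposite strand. Its relatives Cebpa and Cebpd were called lower in SB28 cells than in astrocytes. Cebpd had means of 5.69 CPM in mKate2- cells, 5.20 CPM in mKate2+ cells and 62.9 CPM in astrocytes, and Cebpa did not exceed 0.589 CPM in SB28 cells against 14.1, 15.5 and 61.6 CPM in astrocytes. Of 13 paralogs of the factors, 8 passed the filter in each comparison with astrocytes. In mKate2- SB28 cells 1 was called higher and 2 lower, where 11.5% of all genes were called higher and 22.4% lower. In mKate2+ SB28 cells 1 was called higher and 3 lower, where 12.2% of all genes were called higher and 22.8% lower. Of these 3, the call of Fos depended on the setting. Between the SB28 populations 0 of 7 were called, where 0.363% of all genes were.

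**Figure D3:**
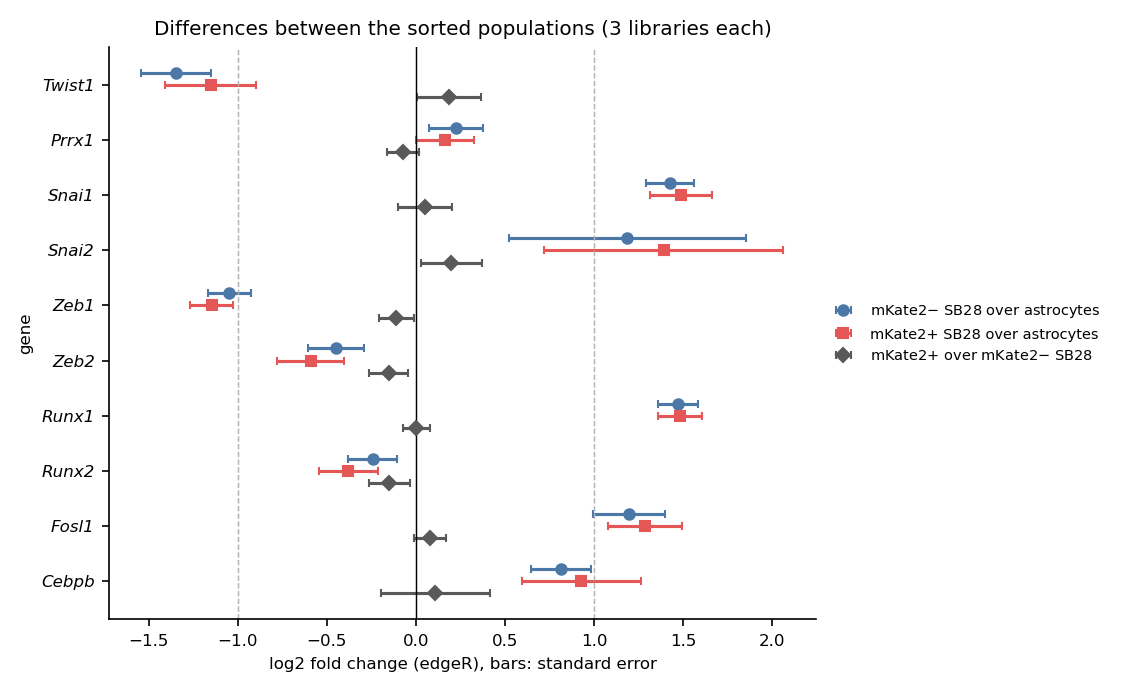
Log2 fold changes of the 10 factors with standard errors from edgeR for mKate2- SB28 over astrocytes (circles), mKate2+ SB28 over astrocytes (squares) and mKate2+ over mKate2- SB28 (diamonds), with dashed lines at 1 and -1. The diamonds lie between -0.15 and 0.20, whereas Snai1, Runx1 and Fosl1 lie beyond 1 and Twist1 and Zeb1 beyond -1 in both comparisons with astrocytes.

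Between the SB28 populations, log2 fold changes of the 10 factors ran from -0.15 ± 0.11 for Zeb2 to 0.20 ± 0.17 for Snai2. Runx2 was at -0.15 ± 0.12, Zeb1 at -0.11 ± 0.097, Prrx1 at -0.072 ± 0.091 and Fosl1 at 0.079 ± 0.089, with adjusted P values of 0.923 to 0.937 for these 4 factors. The 10 factors had a median of 0.028 against 0.0033 for all genes tested. The CPM values of the groups overlapped for all 10 factors, whereas in 8.83% of all genes tested the groups did not overlap (2.16% higher and 6.67% lower in mKate2+ cells). Standard errors of these differences ranged from 0.076 for Runx1 to 0.30 for Cebpb, so small differences could not be resolved. The number of genes at an adjusted P value below 0.05 was 0 in this comparison with edgeR, and 241 genes (2.03%) had an unadjusted P value below 0.05, none of them a factor. Against astrocytes, CPM values did not overlap for 6 of 10 factors in mKate2- SB28 cells (4 higher and 2 lower) and for 8 of 10 in mKate2+ SB28 cells (4 higher and 4 lower). Among all genes tested, the share without overlap was 71.1% (33.8% higher and 37.3% lower) for mKate2- and 67.1% (29.4% higher and 37.7% lower) for mKate2+ SB28 cells. In these bulk libraries, a lower level could come from fewer cells expressing a gene or from less RNA per cell, and the data do not distinguish them.

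Levels were compared between factors per kilobase of exon. The length counts all annotated exons of a gene, which can exceed the transcript expressed. By CPM the order differed. In mKate2- SB28 cells Zeb2 moved from position 9 to 6, Snai1 from 5 to 9 and Twist1 from 3 to 7. In mKate2- SB28 cells, Fosl1 was highest at 76.1 ± 4.94 CPM per kilobase (SD, n = 3), followed by Cebpb at 61.7 ± 6.89 and Twist1 at 28.6 ± 0.70. Genes on the opposite strand overlap 57.2% of the exons of Fosl1 and 20.7% of those of Cebpb. The strand setting is not known, so the positions of Fosl1 and Cebpb carry this limit. Prrx1 (26.4 ± 1.87) could not be separated from Twist1, since their libraries overlapped, and Snai1 (20.6 ± 2.23), Runx1 (10.3 ± 0.57), Zeb1 (6.21 ± 0.62), Runx2 (4.85 ± 0.38), Zeb2 (2.94 ± 0.098) and Snai2 (2.11 ± 0.29) followed without overlap between neighbors. The order was the same in mKate2+ SB28 cells, where Fosl1 overlapped Cebpb and Zeb2 overlapped Snai2. In astrocytes, Twist1 led at 73.2 ± 18.5 CPM per kilobase, ahead of Cebpb (35.5 ± 8.02), Fosl1 (33.5 ± 8.73) and Prrx1 (22.8 ± 4.68), of which Cebpb, Fosl1 and Prrx1 overlapped with their neighbor. Runx1, sixth in SB28 cells, was ninth in astrocytes at 3.77 ± 0.44, overlapping Zeb2, and Snai2 was last in all 3 groups.

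**Figure D4:**
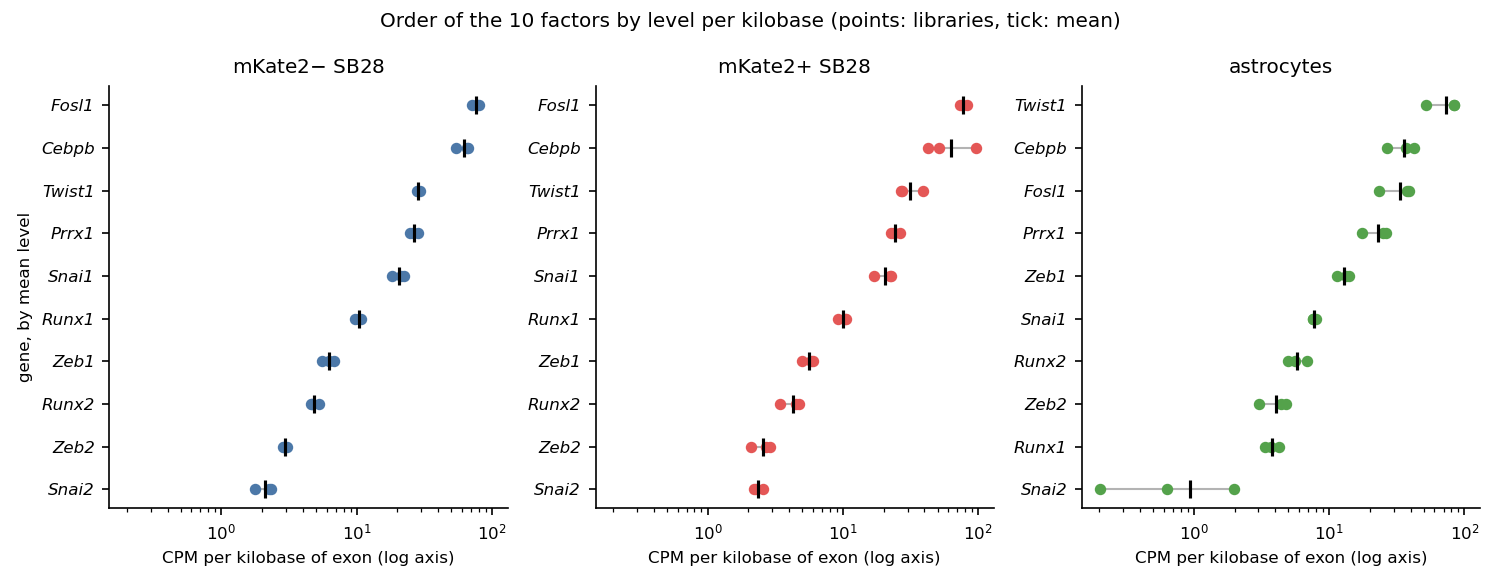
Level of the 10 factors per kilobase of exon (log axis) in each group, ordered by the mean, with points for the 3 libraries and a tick for the mean. Fosl1 leads in both SB28 groups and Twist1 in astrocytes, and Snai2 is last in each group with the widest spread in astrocytes. Fosl1 and Cebpb share exonic bases with genes on the opposite strand.

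Genes that work with or downstream of the factors were counted from fixed lists. Of 13 partners and co-repressors of the factors, all expressed, Cbfb was called higher and Tcf12 lower in SB28 cells in both comparisons with astrocytes, and 0 were called between the SB28 populations. Of all genes tested, 33.9% were called for mKate2- and 35.0% for mKate2+ SB28 cells against astrocytes, and 0.363% between the SB28 populations. TCF12, an E protein that pairs with TWIST1, had mean levels of 207 and 181 CPM in mKate2- and mKate2+ SB28 cells and 598 CPM in astrocytes, with log2 fold changes of -1.52 ± 0.15 (adjusted P = 0.000120) and -1.65 ± 0.16 (adjusted P = 0.000140). The subunits Jun, Junb and Jund, the E proteins Tcf3 and Tcf4 and the co-repressors Ctbp1, Ctbp2, Kdm1a, Rcor1, Hdac1 and Hdac2 were not called in either comparison. The median log2 fold change of the list was -0.023 for mKate2- SB28 cells, against -0.038 for all genes. Among 14 further regulators of mesenchymal glioma, Tead4 and Nfkb1 were called higher in SB28 cells, and Foxc2, Tead3 and Zbtb18 lower, in both comparisons. For all genes tested, the shares called higher and lower were 11.5% and 22.4% for mKate2- and 12.2% and 22.8% for mKate2+ SB28 cells. Tead4, a DNA-binding partner of YAP and TAZ, had means of 76.2, 71.5 and 14.1 CPM, Nfkb1 had 155, 147 and 64.1 CPM and Zbtb18, a repressor in neural cells, had log2 fold changes of -1.16 ± 0.17 (adjusted P = 0.000655) and -1.33 ± 0.18 (adjusted P = 0.000546). Sox4 lay close to the fold threshold, at -1.03 ± 0.19 for mKate2- SB28 cells, where it was called lower, and at -0.93 ± 0.22 for mKate2+ SB28 cells, and the first call was lost without a filter (-0.98), astrocyte replicate 2 (-0.86) or mKate2- replicate 3 (-0.94). For mKate2+ SB28 cells it was called with a minimum of 10 counts (-1.02), with upper-quartile normalization (-1.03) and without astrocyte replicate 3 (-1.11) or mKate2+ replicate 2 (-1.12). Tead3 was as close, at -1.02 ± 0.13 and -1.05 ± 0.14, and lost both calls without a filter (-0.96 and -0.99) and without astrocyte replicate 1 (-0.93 and -0.97), and the first without mKate2- replicate 3 (-0.97). Stat3, Yap1, Rela, Relb and Bhlhe40 had absolute log2 fold changes below 0.5 and were not called.

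Several matrix and adhesion genes of the mesenchymal program were lower in SB28 cells than in astrocytes. Of 27 adhesion, matrix and cytoskeleton genes, 25 passed the filter against mKate2- SB28 cells, of which 2 were called higher and 10 lower than in astrocytes, with the same counts for mKate2+ SB28 cells. Of all genes tested, 11.5% were called higher and 22.4% lower in mKate2- SB28 cells, and 12.2% and 22.8% in mKate2+ SB28 cells. The median log2 fold changes were -0.84 and -0.90, against -0.038 and -0.018 for all genes. Col3a1 and Met were the 2 higher genes, and the call of Col3a1 for mKate2+ SB28 cells was lost without astrocyte replicate 2 (adjusted P = 0.0779) or mKate2+ replicate 3 (adjusted P = 0.0715). Thy1, Tagln, Acta2, Cdh11, Tnc, Fn1, Tgfbi, Loxl2, Cdh2 and Sparc were the 10 lower genes in mKate2- SB28 cells, with fibronectin (Fn1) at means of 833 CPM against 3930 CPM in astrocytes and N-cadherin (Cdh2) at 220 against 678 CPM. Vim, the most abundant gene of the list in all libraries, ranged from 6794 to 8198 CPM in SB28 cells and from 8311 to 12331 CPM in astrocytes, with log2 fold changes of -0.50 ± 0.20 (adjusted P = 0.0544) and -0.42 ± 0.19 (adjusted P = 0.0896). Between the SB28 populations, Tagln, an actin-binding protein, was the only gene of this list to meet the criteria. Its values were 0.515, 1.00 and 1.14 CPM in mKate2- and 1.80, 3.31 and 1.32 CPM in mKate2+ SB28 cells, a log2 fold change of 1.34 ± 0.45 (unadjusted P = 0.0182, adjusted P = 0.923), close to the count minimum with a mean of 51.9 normalized counts. Without mKate2+ replicate 2 it was 0.81 ± 0.36 (unadjusted P = 0.0532) and no longer met them, nor did it without mKate2- replicate 1 (1.08 ± 0.48, unadjusted P = 0.0617). Without mKate2+ replicate 1 (1.47 ± 0.50) and in the fit to all 9 libraries (1.34 ± 0.46) the fold and the unadjusted P value passed, and the mean count of 49.5 and 49.6 fell just under the minimum.

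Epithelial genes were nearly silent in all groups. Of 25 genes repressed by SNAI and ZEB proteins or typical of epithelia, 1 or 2 exceeded 1 CPM in each SB28 library, and 2, 3 and 8 did in astrocyte replicates 1, 2 and 3. Cdh1 (E-cadherin) did not exceed 0.368 CPM in SB28 cells and reached 1.14 CPM in astrocyte replicate 3 alone, with 0 reads in the other astrocyte libraries, and Epcam did not exceed 0.370 CPM. Only 3 of the 25 passed the filter against mKate2- and 4 against mKate2+ SB28 cells, and in each comparison with astrocytes 1 was called higher in SB28 cells and 1 lower, where 33.9% and 35.0% of all genes were called. The desmosomal gene Pkp3 had 5.33 to 7.83 CPM in SB28 cells and 1.11 to 1.35 CPM in astrocytes, and was called higher in SB28 cells with log2 fold changes of 2.44 ± 0.27 (adjusted P = 0.000186) and 2.48 ± 0.26 (adjusted P = 0.000180). St14, which encodes the membrane protease matriptase, had 1.10, 1.22 and 3.47 CPM in astrocytes and did not exceed 0.0585 CPM in SB28 cells, and was called lower in mKate2- (adjusted P = 0.000517) and mKate2+ SB28 cells (adjusted P = 0.000867). Summed over the 25 genes, levels were 8.48 to 11.4 CPM per SB28 library and 6.50, 9.48 and 18.2 CPM in astrocyte replicates 1, 2 and 3.

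**Figure D5:**
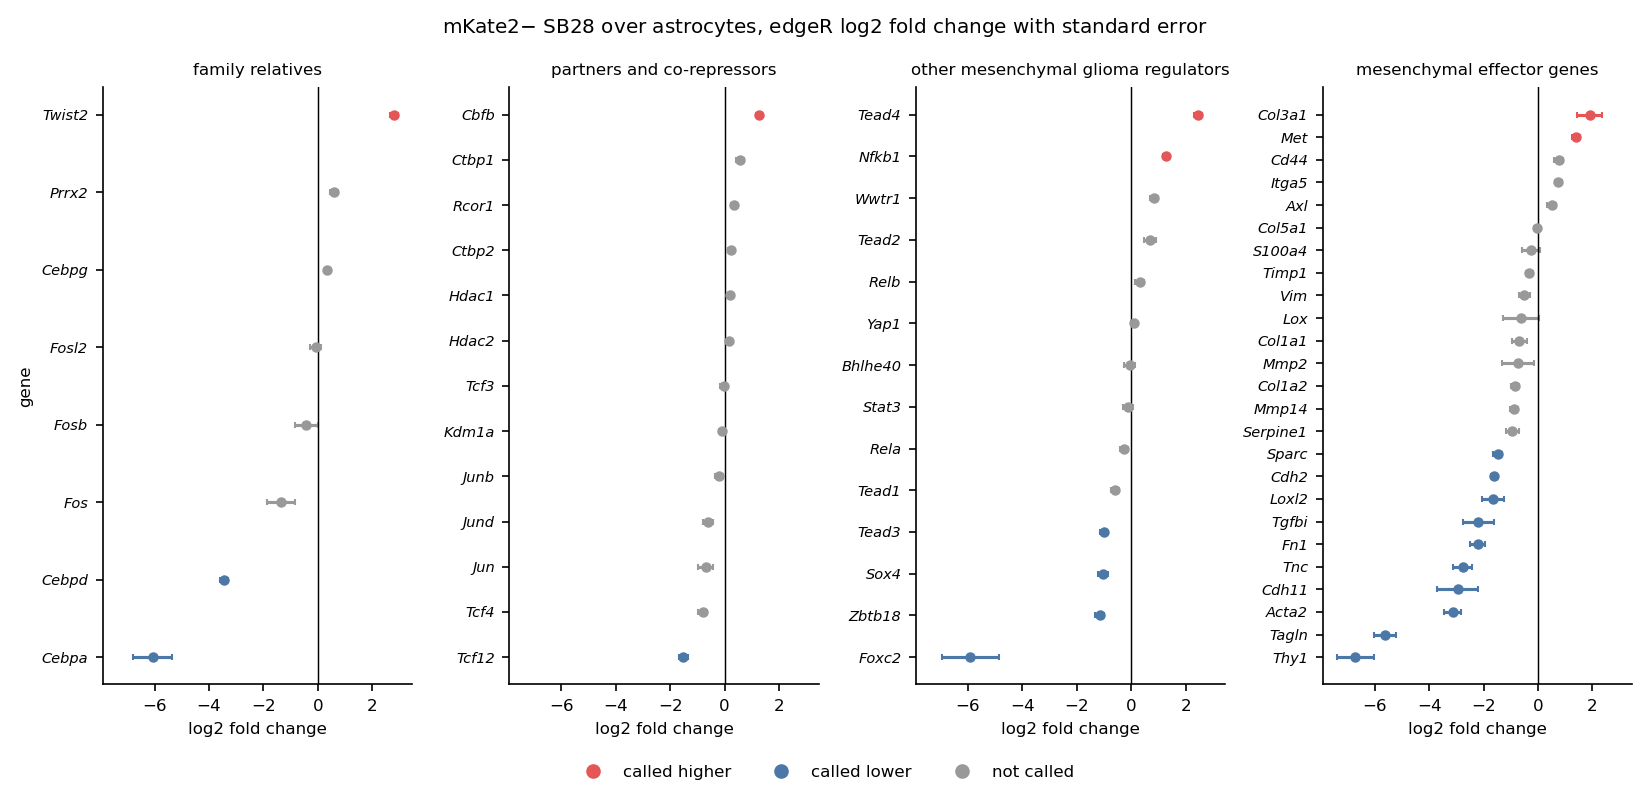
Log2 fold changes with standard errors for mKate2- SB28 over astrocytes in 4 gene lists, with red for genes called higher, blue for genes called lower and grey for the rest. Of the mesenchymal effector genes 10 are called lower and 2 higher, and Twist2 and Cebpa mark the ends of the family relatives.

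Some genes followed the factors closely over the 9 libraries. Pearson correlation of log2 CPM over 13450 expressed genes placed Il18rap (r = 0.998), Chst15 and Sh3kbp1 nearest to Runx1, and Sema5a nearest to Zeb1 (r = 0.998), with Pcdhgb2 also among its 3 nearest genes. For Snai1 the nearest gene was Traf5 (r = 0.991), with Chtf8 also among the 3. The 3 nearest genes were Plin2 (r = 0.996), Grasp and S1pr2 for Fosl1 and Ube2e2 (r = 0.996), Gpx8 and Mettl26 for Twist1. The likeness was least close for Runx2, whose nearest gene was Dtna at r = 0.970, and for Prrx1 and Cebpb, with Pik3c2a at 0.981 and Bpgm at 0.971. These correlations describe 9 libraries that fall into SB28 cells and astrocytes and share their depth and length trends.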

How the data were processed

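RNA-seq counts of 9 libraries were analysed. The authors trimmed adapters (Trimmomatic 0.36), mapped reads to GRCm38 with STAR 2.5.2b and deposited raw counts of uniquely assigned reads per gene from featureCounts (Subread 1.5.2). The annotation release and the strand setting are not given in the sources used here. The labels give CellTrace Violet to tumor cells whereas the paper stains astrocytes, so libraries were taken by name. Gene names, positions and exonic lengths came from GENCODE M21, in which 259 of 49315 IDs have no name, and promoters from RefSeq.

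Each comparison used edgeR 4.0.16 (R 4.3.3) on its 6 libraries, with TMM normalization, genes above 1 CPM in at least 2 libraries, the quasi-likelihood test and Benjamini-Hochberg adjustment over all genes tested. The standard error is the log2 fold change divided by the square root of F. CPM uses total counts. Relative counting error depends on the reads of a gene and is largest for Snai2 and other low genes. Each comparison rests on 3 libraries per group. Alternatives were DESeq2 1.42.0, upper-quartile normalization, no filter, a minimum of 10 counts, more than 50 counts in every library for the tumor pair, one fit over the 9 libraries, a block for the replicate number, removal of a gene length trend (loess, span 0.3, prior count 2) and each library left out. All 10 factors are named, called genes of the lists and the most abundant genes may be named, and the 3 genes nearest to each factor were taken by correlation. Some genes of these lists are not reported here. The factors and lists were chosen with earlier results of these data known. No libraries were duplicates, since counts of replicates differed by a chi-square of at least 15.8 per degree of freedom.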

Additional observations from a re-analysis of the deposited data

How the results depend on the processing

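No factor was called between mKate2+ and mKate2- SB28 cells under any alternative, while the number of all genes called was unstable. It was 23 higher and 20 lower, and higher genes numbered 12 with more than 50 counts in every library, 62 with DESeq2, 224 without a filter, 44 in the fit to all 9 libraries, 13 with the replicate block and 12 with the length trend removed. Lower genes numbered 35, 13 and 33 without a filter, in the 9-library fit and with the block. Leaving out libraries gave 6 (without mKate2+ replicate 2) to 310 (without mKate2+ replicate 1) higher and 16 to 70 (without mKate2+ replicate 1) lower genes, with 233 higher and 36 lower without mKate2+ replicate 3 and 15 and 10 higher without mKate2- replicates 1 and 2. Signs of small differences between the SB28 populations turned for Runx1 with upper-quartile normalization (-0.0045) and, with the length trend removed, for Prrx1 (0.035), Zeb2 (0.0025), Snai1 (-0.070), Cebpb (-0.066) and Fosl1 (-0.0026). Leave-one-out ranges that crossed 0 were -0.064 to 0.20 for Snai1, -0.035 to 0.042 for Runx1, -0.39 to 0.33 for Cebpb and -0.081 to 0.30 for Twist1.

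Against astrocytes, the calls of Twist1, Snai1 and Runx1 held under all alternatives. Factors called lower in mKate2- SB28 cells went from 2 to 1 without a filter and with the length trend removed, and ranged from 1 to 2 when libraries were left out, because Zeb1 stood at -0.99, -0.95 and -0.97 (without mKate2- replicate 1). In mKate2+ SB28 cells they also went to 1 with the length trend removed (Zeb1 -0.96). Leave-one-out counts of factors called higher were 3 for mKate2- and 3 to 4 for mKate2+ SB28 cells. The members behind the first count changed without astrocyte replicate 3, where Fosl1 lost its call (0.99) and Snai2 gained one (2.30). The 3 populations were sorted from the same co-cultures, but the sources do not say that a replicate number marks one. Of 9 same-numbered correlations 3 exceeded 0.1, and 10 of 18 cases correlated best with their own number, so whether the numbers pair the libraries was not settled and the block was kept as an alternative. With the block, Snai2 was called at 1.61 (adjusted P = 0.0314) and 1.83 (adjusted P = 0.0289). The all-gene median moved by more than 0.1 without a filter, to -0.21 for mKate2- and -0.19 for mKate2+ SB28 cells, and the directions of the called factors were kept. Counts were low for Tagln, the epithelial genes and Snai2 in astrocyte replicate 1 (10 reads), and counting error was not separated from the spread between libraries. The causes of these changes were not tested.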
